A study of Mus musculus with 2 samples.

Results

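The cytosolic ribosomal protein genes of mouse liver were compared between livers given a miR-378 adenovirus (Ad-378) and livers given a control adenovirus (Ad-Ctrl). A gene was included if a probe's RefSeq transcript mapped to Rpsa, Rplp0, Rplp1, Rplp2 or a symbol made of Rpl or Rps and a digit, with Rps6k kinases and pseudogenes named -ps left out. This gave 88 genes out of 20659 genes with a symbol on the array, and 85 of them were well above background on both arrays, out of 14288 genes measured on both. The 85 comprised 35 small subunit and 50 large subunit genes by symbol. Among them, 77 encode the core proteins and 8 are paralogs, retrogene copies or a binding protein.

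The Ad-378 group was 1 pool of livers from 5 male mice that were injected in the tail vein, when 8 weeks old, with 1e9 plaque forming units of an adenovirus that overexpresses miR-378. The Ad-Ctrl group was 1 pool of livers from 5 male mice of the same age given the same dose of the control adenovirus by the same route, so both groups carry an adenoviral infection. Strain and diet are not given in the labels. The labels' protocols place liver collection 2 weeks after injection for either pool, whereas the Ad-378 sample is described with 3 weeks. Each pool was hybridised to 1 Agilent 1-colour array, so every difference below has no replicate check, no test was possible, and all values are descriptions of these 2 pools. The series title concerns thyroid hormone-responsive miR-378 in cholesterol and bile acid synthesis, and ribosomal protein genes are not among the genes it names.

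Each cytosolic ribosome contains a small subunit, which reads the messenger RNA, and a large subunit, which joins amino acids into protein. Their proteins are made in step with each other and with ribosomal RNA, and the messenger RNAs of nearly all of them begin with a pyrimidine tract, the TOP sequence, through which mTORC1 signalling controls their translation. Hepatocytes, which secrete most plasma proteins, carry large numbers of ribosomes, and ribosomal protein messenger RNAs are among the most abundant of the liver.

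On the arrays, 28262 gene spots in Ad-378 and 27161 in Ad-Ctrl out of 43020 were well above background, and no spot was saturated. Signals are given as the scanner software's processed signal, a background-subtracted intensity in arbitrary units. Differences are given on the log2 scale as Ad-378 minus Ad-Ctrl after each array was divided by its own 75th percentile, a signal of 695 in Ad-378 and 800 in Ad-Ctrl. Equal processed signals therefore correspond to a small positive difference. The scanner error of a difference, from the deposited spot errors of both arrays, had a median of 0.20 log2 units for the ribosomal protein genes, and covers the reading of the array only. Each gene is represented by the brightest of its probes that passed the background call on both arrays.

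Ribosomal protein genes differed little between the pools and lay close together. Their median difference was 0.12 log2 units, and their SD over genes was 0.15. The median over all measured genes was 0.040 and the SD 0.58. Of the 85 genes, 82 lay within 0.32 log2 units of equality either way, a share of 96.5%, where 54.2% of all measured genes lay within that limit. Beyond it were 3 genes higher in Ad-378, Rps4l, Rpl7l1 and Rpsa (background 23.3%), and none lower (background 22.5%). At 1.5-fold, 1 gene was higher, Rps4l (background 8.79%), and none was lower (background 12%). No ribosomal protein gene differed 2-fold in either direction (background 2.83% higher and 4.51% lower), and so none differed 3-fold (background 0.742% higher and 1.41% lower).

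The sign of the small common offset depended on how the arrays were scaled. With the 75th percentile, 69 of the 85 genes had a positive difference (background 53.9%), and with quantile normalization 29 and with loess normalization 26 did. The median of the ribosomal protein genes was then -0.044 and -0.049, against medians over all genes of -0.0049 and -0.026. No direction can be given for the group as a whole. In pooled tissue, fewer cells of a type and less RNA per cell cannot be told apart.

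**Figure D1:**
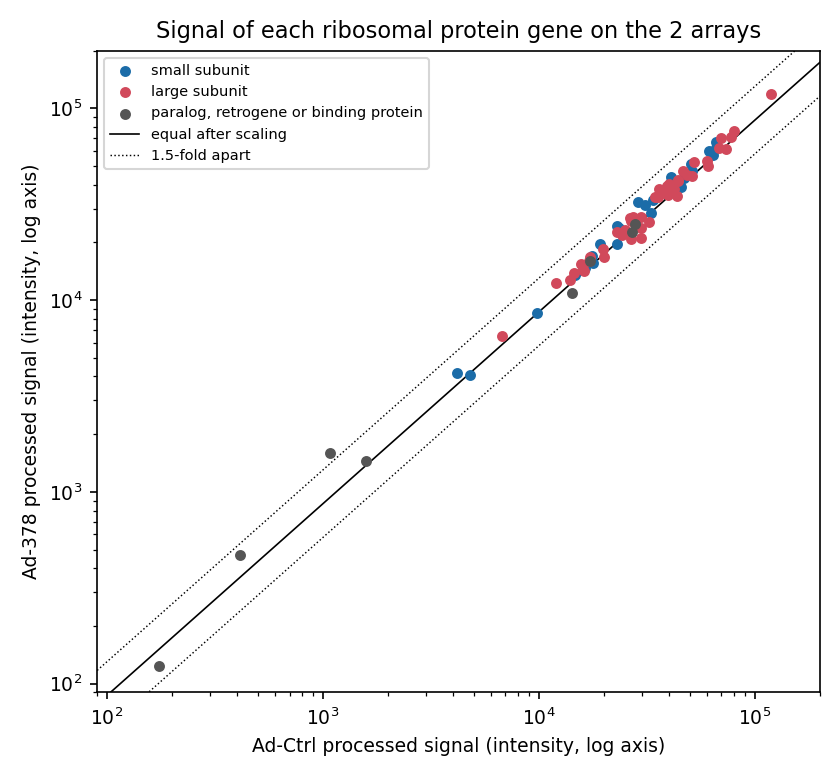
Processed signal of the 85 ribosomal protein genes on the Ad-378 array (vertical, log axis) and the Ad-Ctrl array (horizontal, log axis), 1 point per gene, coloured by subunit. The solid line marks equal signal after scaling by the 75th percentile and the dotted lines a 1.5-fold difference. The genes follow the solid line over signals between 124 and 119419 in Ad-378 and between 175 and 119409 in Ad-Ctrl, and 1 point, Rps4l, lies outside the dotted lines.

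Most of these genes gave bright spots. Their processed signal had a median of 28605 in Ad-378 (range 124 to 119419) and of 30918 in Ad-Ctrl (range 175 to 119409). Summed over the 85 genes, the processed signal was 4.90% of that of all measured genes in Ad-378 and 4.95% in Ad-Ctrl. The 5 brightest were Rpl10, Rplp2, Rpl37a, Rpl36 and Rpl41, with differences of 0.20, 0.14, 0.060, 0.21 and -0.055. Rpl10, a late-joining large subunit protein near the site of peptide bond formation, had a signal of 119419 in Ad-378 and 119409 in Ad-Ctrl. The 5 dimmest were Rps23rg1, Rpl7l1, Rps4l, Rps19bp1 and Rps3, of which only Rps3 is a core protein. Brightness depends on the probe as well as on the transcript, so these ranks do not order the transcripts.

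To take account of brightness, the genes were also set beside 2426 other genes within the signal range of the 77 core members. These other genes had a median difference of 0.16 log2 units and an SD of 0.45. Of them 57.5% lay within 0.32 log2 units and 68.2% had a positive difference. The 1.5-fold limit was passed upwards by 8.49% and downwards by 6.64%. The core ribosomal protein genes had a median of 0.12 and an SD of 0.12, with a range of -0.28 to 0.37. Their median lay below that of the other genes in this signal range, and their SD over genes was smaller. The other genes were chosen by range and not matched on the distribution of signals within it. A lowess curve of difference on mean signal over all probes stood at 0.18 at the median signal of the ribosomal protein genes. Across the 85 genes, Pearson's r of the difference on mean signal was -0.018, a description over genes that share both arrays.

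**Figure D2:**
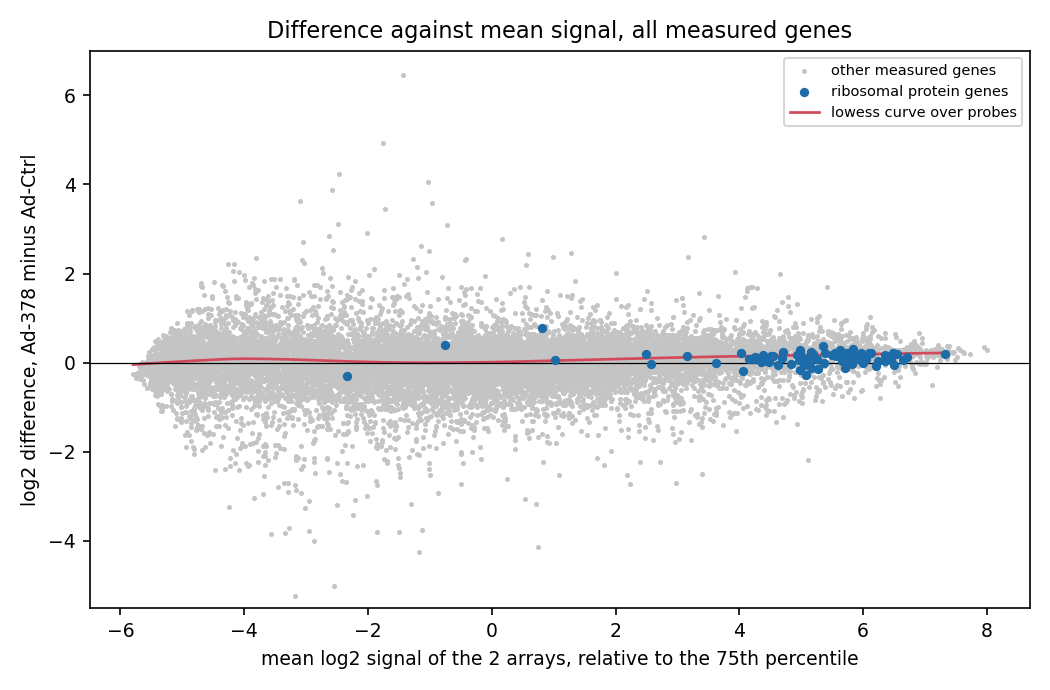
Log2 difference, Ad-378 minus Ad-Ctrl (vertical), against mean log2 signal of the arrays relative to the 75th percentile (horizontal), 1 point per measured gene, with ribosomal protein genes in blue and the lowess curve over probes in red. The ribosomal protein genes form a narrow band near the curve at the bright end, where their median difference of 0.12 lies below the curve's 0.18.

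The core genes at the ends of the ranking are shown with the 250 bases before their transcription start, to set the ends of the ranking side by side at the level of the promoter. Shown are the 2 highest and the 2 lowest core genes with a single promoter in the RefSeq table (GRCm38.p6), each 5′ to 3′ on the strand of the gene. Rpsa, the laminin-binding protein of the small subunit, lies on the plus strand at chr9:120127516-120127765 and Rpl27, a large subunit protein, on the plus strand at chr11:101441995-101442244. Rpl31, a protein at the exit of the peptide tunnel, lies on the plus strand at chr1:39367601-39367850, and Rpl39, a small protein lining that tunnel, on the minus strand at chrX:37085223-37085472. Capitals mark a match to CCGGAAG, a core read by ETS factors, on either strand, or to TATAAA, the letters of a TATA box, on either strand and at any position.
Rpsa: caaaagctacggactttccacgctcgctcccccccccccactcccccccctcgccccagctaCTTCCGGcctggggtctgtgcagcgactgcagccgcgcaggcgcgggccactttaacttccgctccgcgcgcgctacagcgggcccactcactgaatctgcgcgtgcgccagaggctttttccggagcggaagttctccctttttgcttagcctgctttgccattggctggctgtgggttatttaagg
Rpl27: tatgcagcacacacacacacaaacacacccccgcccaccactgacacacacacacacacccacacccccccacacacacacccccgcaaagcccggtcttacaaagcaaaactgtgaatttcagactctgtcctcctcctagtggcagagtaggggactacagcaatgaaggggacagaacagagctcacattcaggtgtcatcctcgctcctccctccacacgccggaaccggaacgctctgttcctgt
Rpl31: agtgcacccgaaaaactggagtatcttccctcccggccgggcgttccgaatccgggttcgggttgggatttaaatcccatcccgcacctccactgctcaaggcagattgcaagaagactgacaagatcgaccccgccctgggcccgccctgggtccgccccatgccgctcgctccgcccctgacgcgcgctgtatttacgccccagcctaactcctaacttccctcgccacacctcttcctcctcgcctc
Rpl39: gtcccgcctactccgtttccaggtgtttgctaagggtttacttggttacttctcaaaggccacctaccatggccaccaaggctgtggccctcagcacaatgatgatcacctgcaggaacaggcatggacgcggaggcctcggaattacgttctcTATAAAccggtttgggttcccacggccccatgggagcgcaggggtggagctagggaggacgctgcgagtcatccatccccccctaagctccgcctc
Rpsa holds CCGGAAG on the other strand and Rpl39 holds TATAAA on the gene strand, while none of the motifs searched was found in the 250 bases of Rpl27 or Rpl31. In the longer window that also takes in 50 bases after the start, CCGGAAG was present in Rpl31 and Rpl39 as well as in Rpsa, so its presence does not set the high genes apart from the low ones.

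A promoter was found in the table for 64 of the 85 genes, with 75 promoters in all because some genes have several. Windows of 250 bases before and 50 after the start were searched on both strands, and the shares were set beside those over all 32851 promoters. The CCGGAAG motif was present in 26 of 75 ribosomal protein promoters (34.7%) and in 8.86% of all promoters. CTCTTT, a pyrimidine run of the kind found at TOP starts, was present in 33 of 75 (44%) and in 23.0% of all. On the gene strand after the start alone, CTCTTT was present in 17 of 75 (22.7%) and in 1.68% of all. AAGATGG, the core read by YY1, was present in 12 of 75 (16%) and in 6.34% of all, and TATAAA in 8 of 75 (10.7%) and in 13.6% of all. AAGATGG holds the letters of a start codon and can overlap the coding start. A match is a description of letters and says nothing about binding in these livers.

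The small subunit genes had a median difference of 0.12 log2 units, with 29 of 35 positive, and the 31 core ones a median of 0.14 and a range of -0.033 to 0.37. Rpsa had a processed signal of 32382 in Ad-378 and 28859 in Ad-Ctrl, a difference of 0.37 (1.29-fold, scanner error 0.20). Its 4 probes gave 0.37, 0.43, 0.51 and 0.59, over signals of 32382 down to 70.6 in Ad-378, so all were positive. Rpsa was the core gene with the largest difference, and every probe lay above the median of the group.

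Rps14, a protein of the platform where messenger RNA leaves, had a signal of 43822 in Ad-378 and 40949 in Ad-Ctrl, a difference of 0.30 on its single probe. Rps25, needed for initiation at several viral internal entry sites, had a signal of 24253 in Ad-378 and 22893 in Ad-Ctrl, a difference of 0.29, and a dim second probe gave 0.42. Rps26, which contacts the messenger RNA upstream of the start codon, had a signal of 19607 in Ad-378 and 19174 in Ad-Ctrl, a difference of 0.24. All 3 differences lay within the 95% interval of their scanner error.

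Rps23, a protein of the decoding centre, had a signal of 23875 in Ad-378 and 23434 in Ad-Ctrl, a difference of 0.23. Rps6, the substrate of the S6 kinases below mTORC1, had a signal of 37676 in Ad-378 and 42825 in Ad-Ctrl, a difference of 0.018. Its 3 probes ranged from -0.093 to 0.21, on both sides of 0. Rps19bp1, which encodes a protein that binds Rps19 and the deacetylase Sirt1 and is no ribosomal subunit, had a signal of 1446.5 in Ad-378 and 1589 in Ad-Ctrl, a difference of 0.067.

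**Figure D3:**
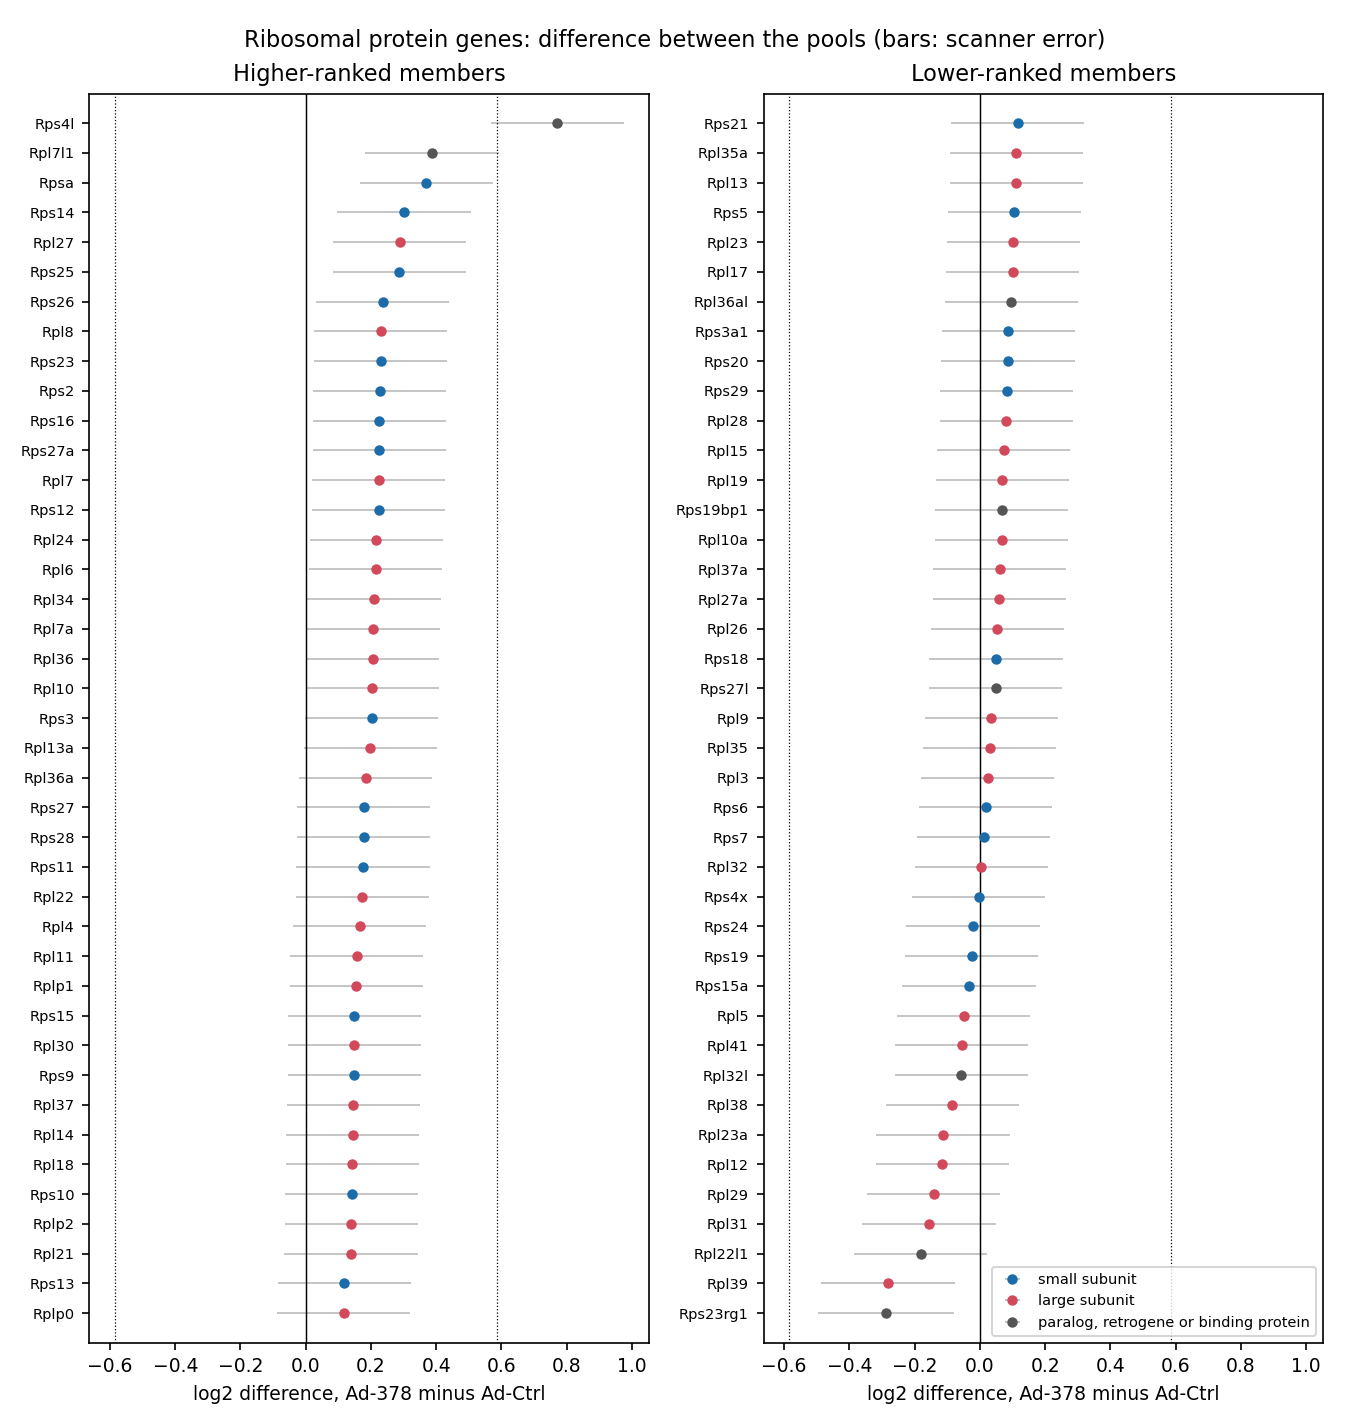
Log2 difference, Ad-378 minus Ad-Ctrl (horizontal), for 82 of the 85 ribosomal protein genes in rank order, the higher-ranked at left and the lower-ranked at right. Points are the brightest probe of each gene, coloured by subunit, bars are 1 scanner error either way, and dotted lines mark 1.5-fold. The other genes lie between -0.29 and 0.39, and Rps4l stands apart at 0.77.

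The large subunit genes had a median difference of 0.11 log2 units, with 40 of 50 positive, and the 46 core ones a median of 0.11 and a range of -0.28 to 0.29. Rpl27 had a signal of 38048 in Ad-378 and 35881 in Ad-Ctrl, a difference of 0.29, and its second probe gave 0.17. Rpl8, which lies beside the site of peptide bond formation, had a signal of 26879 in Ad-378 and 26379 in Ad-Ctrl, a difference of 0.23. Both subunits thus had nearly the same median and overlapping ranges.

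Rpl39 was the lowest core gene, with a signal of 21163 in Ad-378 and 29615 in Ad-Ctrl, a difference of -0.28 (1.22-fold lower, scanner error 0.20). Its other bright probe had 18555 in Ad-378 and 26843 in Ad-Ctrl (-0.33), and a dim probe had 108 in Ad-378 and 189 in Ad-Ctrl (-0.60). All 3 probes were lower in Ad-378. Rpl31 had a signal of 20852 in Ad-378 and 26742 in Ad-Ctrl, a difference of -0.16. Of its 4 probes 3 were lower in Ad-378, down to -0.29, and a dim probe gave 0.030.

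Rpl29, also known as a heparin-binding protein, had a signal of 25453 in Ad-378 and 32338 in Ad-Ctrl, a difference of -0.14, with a second probe at -0.30. Rpl23a, where the signal recognition particle docks, had a signal of 34861 in Ad-378 and 43410 in Ad-Ctrl, a difference of -0.11, with a second probe at -0.24. Rpl12, at the base of the stalk, had a signal of 23867 in Ad-378 and 29754 in Ad-Ctrl, a difference of -0.11, but a second probe gave 0.042. Of these, Rpl29 and Rpl23a were lower on every probe.

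Rpl38, whose loss in mice alters translation of Hox messenger RNAs, had a signal of 49994 in Ad-378 and 61030 in Ad-Ctrl, a difference of -0.084, with a second probe at -0.061. Rpl41, the smallest ribosomal protein, had a signal of 61678 in Ad-378 and 73794 in Ad-Ctrl, a difference of -0.055. Rpl32l, annotated as a Rpl32-like gene, had a signal of 22590 in Ad-378 and 27063 in Ad-Ctrl, a difference of -0.057. These 3 lay well inside 1 scanner error of equality.

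The acidic stalk, which recruits elongation factors, comprises Rplp0 and dimers of Rplp1 and Rplp2. Rplp0 had a signal of 41727 in Ad-378 and 44298 in Ad-Ctrl, a difference of 0.12. Rplp1 had a signal of 16734 in Ad-378 and 17300 in Ad-Ctrl, a difference of 0.16, and Rplp2 a signal of 76684 in Ad-378 and 80154 in Ad-Ctrl, a difference of 0.14. The 3 stalk genes lay near the median of the group. Rpl5 and Rpl11, which with 5S ribosomal RNA bind Mdm2 when assembly is disturbed, gave differences of -0.049 and 0.16. Their signals were 16766 for Rpl5 and 34619 for Rpl11 in Ad-378, and 19969 for Rpl5 and 35767 for Rpl11 in Ad-Ctrl.

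Among the 8 paralogs and other genes, differences spread more widely, with an SD of 0.34 around a median of 0.058. Rps4l, a relative of Rps4x that the RefSeq table annotates as a transcribed pseudogene, had a signal of 1597 in Ad-378 and 1078 in Ad-Ctrl on its single probe. The difference was 0.77 (1.71-fold, scanner error 0.20), the largest of all 85 genes and the only one outside the 95% interval of its scanner error (background 33.2% of all measured genes). Rps4x, the core gene on the X chromosome, had a signal of 8534 in Ad-378 and 9845 in Ad-Ctrl, a difference of -0.0029. The difference of Rps4l exceeded that of Rps4x by 0.77 (scanner error 0.29), and by 0.72 to 0.87 over 8 ways of processing.

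Rpl22l1 encodes a close paralog of Rpl22, a protein known to repress Rpl22l1 in mouse. Rpl22l1 had a signal of 10862 in Ad-378 and 14180 in Ad-Ctrl, a difference of -0.18, and Rpl22 had 22589 in Ad-378 and 23055 in Ad-Ctrl, a difference of 0.17. Rpl22l1 thus stood 0.36 log2 units below Rpl22 (scanner error 0.29, range -0.39 to -0.25 over the 8 ways). Rps23rg1, a retroposed copy of Rps23, had a signal of 124 in Ad-378 and 175 in Ad-Ctrl, a difference of -0.29. It stood 0.52 below Rps23 (scanner error 0.29), with a range of -1.0 to -0.34.

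The other copies lay closer to their partners. Rpl7l1, a relative of Rpl7, had a signal of 470.5 in Ad-378 and 414 in Ad-Ctrl, a difference of 0.39, and Rpl7 had 47003 in Ad-378 and 46323 in Ad-Ctrl, a difference of 0.22. The gap of Rpl7l1 over Rpl7 was 0.16, and it turned sign over the 8 ways (-0.36 to 0.40). Rps27l, a p53 target related to Rps27, had a signal of 25028 in Ad-378 and 27862 in Ad-Ctrl, and Rps27 had 60215 in Ad-378 and 61285 in Ad-Ctrl. Their differences were 0.049 for Rps27l and 0.18 for Rps27, a gap of -0.13. Rpl36al, with 16037 in Ad-378 and 17279 in Ad-Ctrl, stood 0.089 below Rpl36a, with 15471 in Ad-378 and 15677 in Ad-Ctrl. Rpl32l stood 0.062 below Rpl32, which had 44455 in Ad-378 and 51022 in Ad-Ctrl. None of these 4 gaps exceeded its scanner error of 0.29.

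The remaining 3 genes of the rule were not measured on both arrays, and are paralogs known mainly from muscle or testis. Rpl3l, a striated muscle form of Rpl3, was well above background in Ad-378 (13.9) and not in Ad-Ctrl (10.4), at least 1.05-fold higher against the lowest signal called well above background on that array, 15.2. The highest of 153 negative control spots was 7.52 in Ad-378 and 21.0 in Ad-Ctrl, so the bound rests on signals near background, and the scanner error of the probe was 0.53 log2 units. Rpl10l, a testis form of Rpl10, had signals of 2.93 and 3.28 on its 2 probes in Ad-378 and 3.86 and 4.21 in Ad-Ctrl. Rpl39l, a testis form of Rpl39, had 7.29 in Ad-378 and 14.7 in Ad-Ctrl. Rpl10l and Rpl39l were not well above background on either array. Rpl3, by contrast, had a signal of 14261 in Ad-378 and 16151 in Ad-Ctrl, a difference of 0.024.

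Several probes per gene gave an internal check on the small differences. Of the 178 probes, 172 were well above background on both arrays, with differences of -0.60 to 0.77, a median of 0.13 and an SD of 0.17. In 51 genes 2 or more probes were measured. All probes were positive in 31 of these genes, all were negative in 4 (Rpl23a, Rpl29, Rpl38 and Rpl39), and signs were mixed in 16. The SD between gene means was 0.15 and the pooled SD between probes of the same gene 0.11. Probes of the same gene share the same RNA pools and arrays, so their spread does not stand for biological error.

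Among the 16 genes with mixed signs were Rpl12, Rpl13a, Rpl14, Rpl15, Rpl23, Rpl26, Rpl27a, Rpl30, Rpl31, Rpl36a, Rps3, Rps3a1, Rps6, Rps15a and Rps24. The widest range was in Rpl36a, whose 3 probes gave 0.28, 0.18 and -0.18. In Rpl23 the probes spanned -0.050 to 0.25 and in Rps24 -0.021 to 0.28, so the sign of these genes depends on the probe taken. The probe ranges had a median of 0.13 and a maximum of 0.46.

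Rpl23 carried a probe printed in 10 spots per array. Its spots ranged from 4534 to 5214 in Ad-378 and from 5370 to 6092 in Ad-Ctrl. The spots do not overlap as raw signal, but after scaling the difference was -0.050 ± 0.050 (SD over 10 paired spots of the same arrays), with 9 of 10 negative. The other probes of Rpl23 gave 0.10 and 0.25. Probe to probe disagreement within Rpl23 was thus larger than spot to spot scatter.

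**Figure D4:**
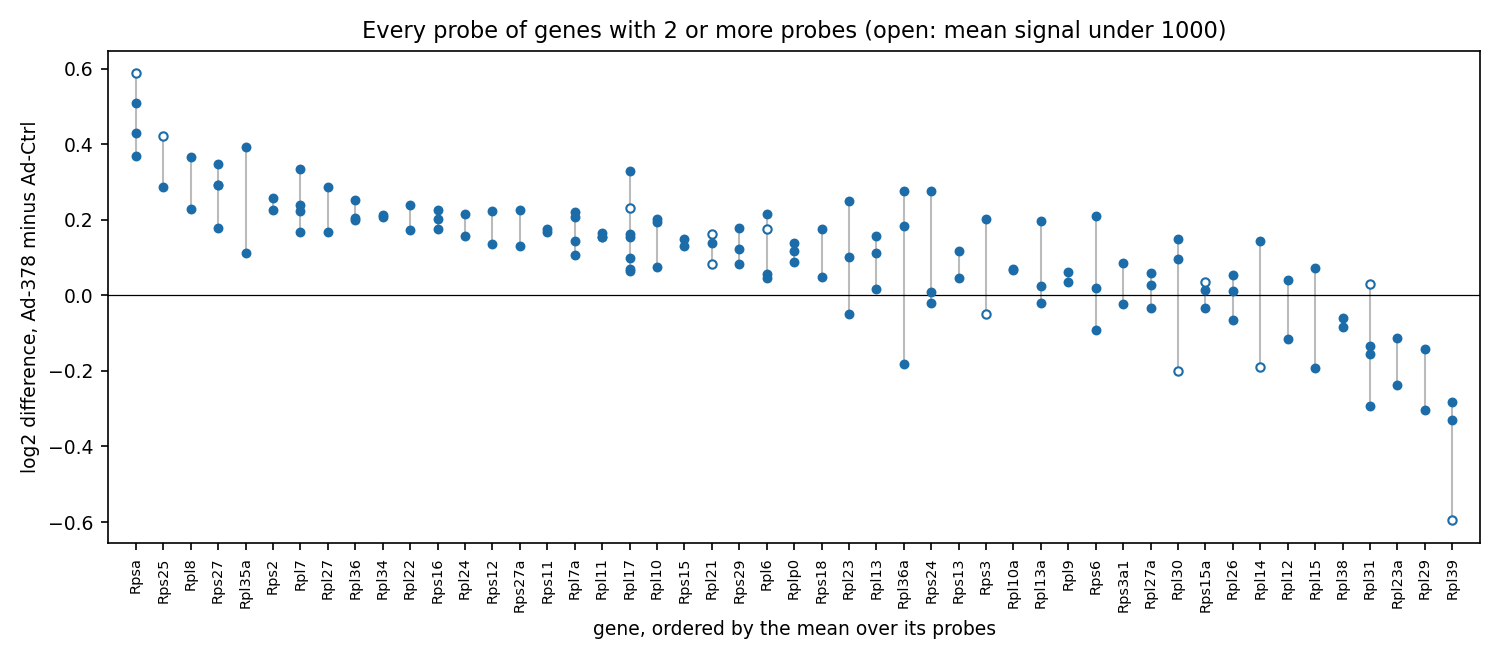
Log2 difference, Ad-378 minus Ad-Ctrl (vertical), of every probe of 49 of the 51 ribosomal protein genes with 2 or more measured probes (horizontal, ordered by the mean over probes). Open points have a mean signal under 1000, and grey lines join the probes of a gene. Rpsa stands at the high end with 4 probes between 0.37 and 0.59, Rpl39 at the low end with 3 probes between -0.60 and -0.28, and 15 of the genes shown have probes on both sides of 0.

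Ribosomal protein genes have many processed pseudogenes with nearly the same sequence, and the arrays' probe sequences were not used here, so signal from copies cannot be separated from that of the parent gene. A further probe of Rps27a was well above background in Ad-Ctrl only (3.64 in Ad-378 and 17.0 in Ad-Ctrl, at least 1.3-fold lower in Ad-378). Its signal in Ad-Ctrl lay below the highest negative control spot of that array, 21.0, and its scanner error was 0.99 log2 units. The other Rps27a probes were bright and gave 0.13 and 0.23.

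The processing was varied in 8 ways that kept the filter on background. The SD over the 85 genes lay between 0.15 and 0.18 in all 8, against 0.46 to 0.58 for all genes. Of the 85 genes, 26 were positive in all 8 ways, 2 were negative in all (Rpl39 and Rps23rg1) and 57 turned sign. Rpl39 ranged from -0.45 to -0.14, Rpsa from 0.19 to 0.56 and Rps4l from 0.73 to 0.85. Of the 85, 84 stayed within 1.5-fold in all 8 ways, the exception being Rps4l. The matching counts of stable signs and of the 1.5-fold limit over all measured genes are not given here. These numbers therefore do not show whether the group differs from other genes.

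With normexp background correction the median of all genes moved to -0.15 and that of the ribosomal protein genes to 0.32, which is 0.47 above it. Under that correction 41 of the 85 genes lay within 0.32 log2 units of equality, where the 75th percentile alone gave 82. All measured genes spread more widely as well, with an interquartile range of 0.91 under normexp against 0.58 with the 75th percentile. The share of all genes within that limit under normexp is not given here. The offset of the group from all genes was 0.076 with the 75th percentile, -0.039 with quantile and -0.024 with loess normalization.

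**Figure D5:**
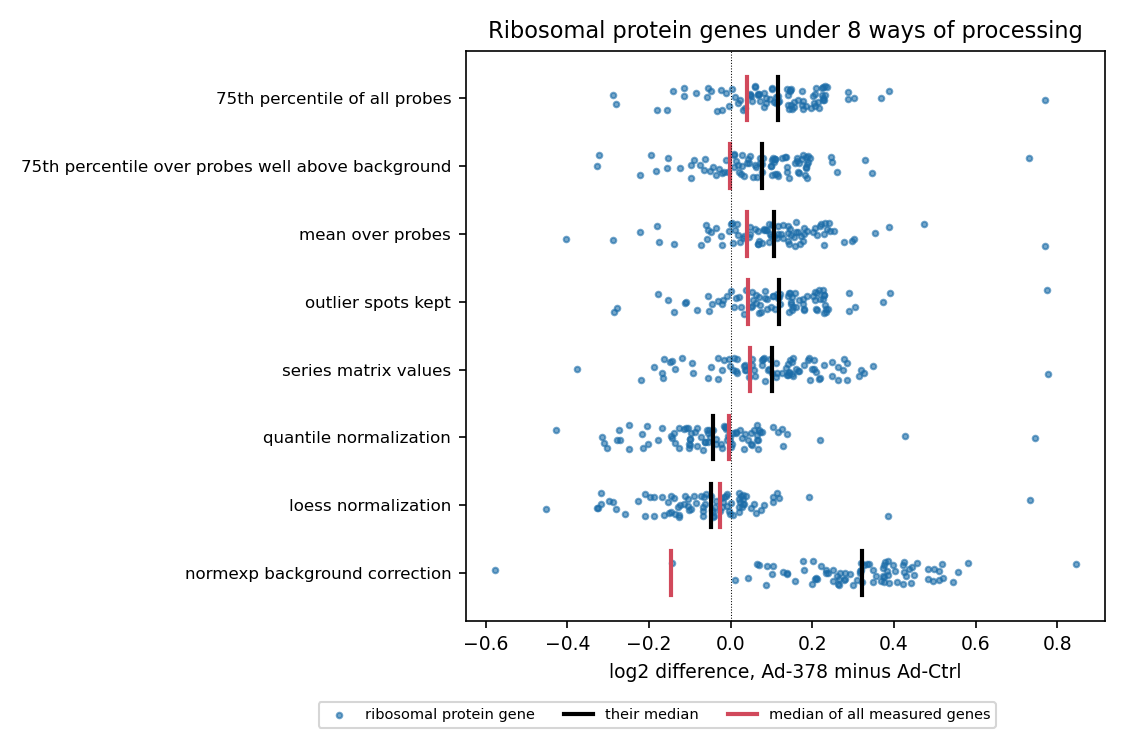
Log2 difference, Ad-378 minus Ad-Ctrl (horizontal), of the ribosomal protein genes under 8 ways of processing (vertical), 1 point per gene. Black bars mark their median and red bars the median of all measured genes. The black bar stands at 0.12 with the 75th percentile, at -0.044 and -0.049 with quantile and loess normalization and at 0.32 with normexp, while Rps4l stays at the right in every row.

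A few proteins of the cytosolic ribosome lie outside the symbol rule because of their names. Fau, a ubiquitin-like fusion to a small subunit protein, had a signal of 87554 in Ad-378 and 89889 in Ad-Ctrl, a difference of 0.17. Rack1, a signalling scaffold on the small subunit, had 36783 in Ad-378 and 44722 in Ad-Ctrl, a difference of -0.079. Both lay within the range of the core genes.

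Lists of other translation genes were described in the same way. Of all measured genes 53.9% had a positive difference, and beyond 0.32 log2 units 23.3% were higher and 22.5% lower in Ad-378. These shares stand behind each count that follows.

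Genes with symbols of mitochondrial ribosomal proteins, the proteins of the separate ribosome of mitochondria, gave a larger offset. They were taken by symbol alone, so a member need not be a part of that ribosome. Their median was 0.34 log2 units over 77 measured genes, with 72 positive (53.9% over all genes). Higher by more than 0.32 were 42 (23.3% over all genes), and lower by more than that was 1 (22.5% over all genes). The highest were Mrpl46 (962 in Ad-378 and 676 in Ad-Ctrl, 0.71) and Mrpl9 (2736 in Ad-378 and 1977 in Ad-Ctrl, 0.67). The lowest were Mrps36 (2044 in Ad-378 and 3111 in Ad-Ctrl, -0.40) and Mrps6 (1226 in Ad-378 and 1581 in Ad-Ctrl, -0.16). Their median was positive in all 8 ways, between 0.24 and 0.48, while that of the cytosolic genes changed sign. With 1 array per group the difference between the sets was not tested.

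Of the translation factors, 28 of 35 initiation factors were positive, with a median of 0.21 (53.9% positive over all genes). With quantile normalization 22 were positive with a median of 0.12, and with loess 22 with a median of 0.10. The highest were Eif5b (0.65, near background at 40.1 in Ad-378 and 29.4 in Ad-Ctrl) and Eif2b3 (0.55), and the lowest Eif3l (-0.19) and Eif1a (-0.18). With the 75th percentile all 11 genes listed under elongation and release, not all of them factors themselves, were positive, with a median of 0.24. With quantile normalization 10 were positive (median 0.13) and with loess 9 (median 0.11). Among them Eif5a, which helps ribosomes past proline runs, had a signal of 5264 in Ad-378 and 3362 in Ad-Ctrl, a difference of 0.85. Eef2k, a kinase that inhibits the elongation factor Eef2, gave 0.49, and the lowest were Eef1g (0.016) and Etf1 (0.072). Non-ribosomal TOP genes had a median of 0.17, with 19 of 24 positive (53.9% over all genes). Their median was 0.022 (13 positive) with quantile and -0.0024 (11 positive) with loess normalization, so no direction can be given for them either. Hnrnpa1 (0.66, second probe 0.049) and Eef1d (0.37) were highest, and Vim (-0.76) and Nap1l1 (-0.21) lowest.

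Genes of ribosome assembly and rRNA processing had a median of 0.15, with 51 of 67 positive (53.9% over all genes). Higher by more than 0.32 were 16 of 67, near the 23.3% of all genes, and lower by more than that were 3 (22.5% over all genes). The median was 0.12 with quantile and 0.097 with loess normalization. Riok2, a kinase of late small subunit maturation, gave 0.56 and Aatf 0.55. Riok1, a related kinase, had a signal of 166 in Ad-378 and 723 in Ad-Ctrl, a difference of -1.92 on a single probe, and Rrp1 had 3253 in Ad-378 and 7002 in Ad-Ctrl, a difference of -0.90, with a second probe at -1.35. These 2 were the only members of the list at least 1.5-fold lower (12% over all genes). None was at least 1.5-fold higher (8.79% over all genes).

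RNA polymerase I and its factors, which make the large ribosomal RNAs, had a median of 0.12, with 12 of 19 positive (53.9% over all genes). Their median was 0.051 with quantile and 0.032 with loess normalization. Polr2e (0.58) and Polr1e (0.40) were highest, and Taf1d (-0.30) and Polr1a (-0.28) lowest. The list takes in subunits shared with other RNA polymerases, so its offset is not particular to polymerase I. Those with Polr2 symbols were Polr2e, Polr2f (0.27), Polr2h (0.37), Polr2k (0.27) and Polr2l (0.38, with another probe at -0.15). Polr1c (-0.044) and Polr1d (0.060, with another probe at 0.36) are shared with RNA polymerase III. RNA polymerase III and the factors for 5S RNA had a median of 0.082 (0.0054 with normexp), with 12 of 20 positive, from Polr3g (0.83) and Polr3c (0.49) to Polr3gl (-0.39).

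Genes of Myc and mTORC1 control, which set the output of ribosomal protein genes and of their messenger RNAs, had a median of -0.074, with 9 of 25 positive (53.9% over all genes). The list mixes genes that drive this control with genes that inhibit it, so its counts and median give no direction for the pathway. The median was -0.14 with quantile and -0.17 with loess normalization. Lower by more than 0.32 were 8 (22.5% over all genes), and higher by more than that was 1 (23.3% over all genes). Eif4ebp2, a repressor of cap-dependent initiation, gave 0.77 and Deptor 0.28. Mxd1, a Myc antagonist, had a signal of 842 in Ad-378 and 2143 in Ad-Ctrl, a difference of -1.15, but its other probe gave -0.12. Ddit4, an inhibitor of mTORC1, had 11259 in Ad-378 and 27529 in Ad-Ctrl, a difference of -1.09. Ribosome stalling and surveillance genes had a median of 0.045, with 7 of 12 positive (6 with loess normalization), from Gcn1 (0.59) and Trp53 (0.44) to Ltn1 (-0.45) and Nemf (-0.27).

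The labelled tissue fits its defining markers, since the 7 hepatocyte markers, among them Alb and Apoa1, were all well above background, with a summed signal of 624645 in Ad-378 and 672672 in Ad-Ctrl. Markers of other cell types differed between the pools in both directions. The 5 macrophage markers summed to 28446 in Ad-378 and 60348 in Ad-Ctrl, with 0 of 5 positive, and the 5 stellate cell markers to 25507 in Ad-378 and 56864 in Ad-Ctrl, with 0 of 5 positive. Over the longer lists, 0 of 13 macrophage genes (median -0.88) and 0 of 13 stellate cell genes (median -0.80) were positive, and 1 of 22 proliferation genes was (median -1.84). T and NK cell markers (4 of 12 positive, median -0.39) and sinusoidal endothelial markers (2 of 14, median -0.23) were also mostly lower in Ad-378. With normexp the endothelial list had 6 of 14 positive and a median of -0.072. B and plasma cell markers (6 of 7 positive, median 0.42) and cholangiocyte markers (5 of 6, median 0.67) were mostly higher, but with normexp their medians were -0.49 and -0.40. The hepatocyte list had a median of 0.15, with 12 of 16 positive (53.9% over all genes), and turned to -0.036 with quantile and -0.063 with loess normalization, with 4 of 16 positive under each. Acute phase genes (11 of 16 positive, median 0.15) turned to -0.031 and -0.042 under these scalings, and housekeeping genes (8 of 11, median 0.12) to -0.032 and -0.044. The part of these cell types in the ribosomal protein differences was not tested.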

How the data were processed

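Liver RNA of 1 pool of 5 mice per group was measured on 1-colour Agilent arrays of 44397 spots. The authors deposited scanner files in which each value is an intensity, the processed signal being background-subtracted within the array, per the file headers, with no scaling between arrays. Version 11.0.1.1 of Agilent Feature Extraction is named in the file headers and 9.1 in the submitters' processing notes. The deposited series matrix holds intensity values equal to the raw median signal of the spots in 100% of values, with medians of 95 in Ad-378 and 103 in Ad-Ctrl. Flags for background, saturation and outliers, deposited by the authors, are other values of 0 or 1. The extraction protocol in the labels describes a blood RNA kit with globin removal, although the tissue is liver, and 0.5 micrograms of RNA were labelled.

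Control spots and outlier spots (123 per array, 0 of them of ribosomal protein genes) were left out. The log2 processed signal minus the array's 75th percentile was computed, replicate spots were averaged per probe, and each gene was given the value of the brightest of its probes that passed the background call on both arrays. Probes were named through RefSeq transcripts in a table of assembly GRCm38.p6. Of 95 symbols of that table that fit the rule, 7 had no probe. Scripts used Python 3.11.15, numpy 2.4.6, pandas 2.3.3, statsmodels 0.14.6 (lowess span 0.3) and R 4.3.3 with limma 3.58.1 (normexp offset 50). They were tested on simulated data, and quantile normalization was computed in Python. The alternatives were other scalings, probe means, normexp, the series matrix, no background filter, outliers kept and other fold limits. Precision is limited by 1 array per group, and 261 probes with 9 or more spots on each array differed between spots by an SD of log2 signal whose median was 0.065 (Ad-378) and 0.062 (Ad-Ctrl). The lowest signal called well above background was 11.3 in Ad-378 and 15.2 in Ad-Ctrl.

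The genes, lists and comparisons were chosen with earlier results of these data known. Genes named with values were the 10 highest and 10 lowest, the 5 brightest and 5 dimmest, those measured on 1 array only, paralogs and their partners, stalk and 5S proteins, Rpsa, Rps6, Rps19bp1 and those with probes of opposite sign. Of each list of other translation genes, the 2 highest and 2 lowest were named, while lists of cell type markers, proliferation, acute phase and housekeeping genes are given by counts and medians. A few of these genes are not reported here by name and are left out of the plots that name genes, but they are counted in every total. The comparison with other genes in the same signal range, the promoter motifs and the naming of Rps23rg1 and Rpl32l among the copies were added after the data were seen.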

Additional observations from a re-analysis of the deposited data

Results flagged for a closer look

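Ribosomal protein pseudogenes named -ps lie outside the symbol rule, and 2 of them were well above background on both arrays. Rpl34-ps1 had a processed signal of 6358 in Ad-378 and 6391 in Ad-Ctrl, a difference of 0.20 log2 units, against 0.21 for Rpl34. Rps15a-ps6 had 63.8 in Ad-378 and 51.6 in Ad-Ctrl, a difference of 0.51 (scanner error 0.23), against -0.033 for Rps15a. The highest signal among 153 negative control spots was 7.52 in Ad-378 and 21.0 in Ad-Ctrl. Whether the probes read the pseudogene or its parent was not tested.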

How the results depend on the processing

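The median of the ribosomal protein genes (0.12 log2 units) turned to -0.044 with quantile and -0.049 with loess normalization, and moved to 0.32 with normexp, where the median of all genes moved to -0.15. For small subunit genes the values were -0.024, -0.041 and 0.35, and for large subunit genes -0.055, -0.064 and 0.32, in the same order. Positive differences numbered 29 with quantile and 26 with loess, against 69. Without the background filter the genes at least 1.5-fold higher were 2 and lower 1, the added ones being Rpl3l (0.62) and Rpl39l (-0.81), whose probes were not well above background on both arrays. At a limit of 0.32 log2 units 3 genes were higher, and at 3-fold 0. The causes were not tested. All 400 values of the 50 named genes under alternatives lay within the 95% interval of the scanner error around the main value. That interval is wide beside the SD of 0.15 over the 85 genes, and the alternatives reuse the same spots. The count is therefore no check of stability, and 57 of the 85 genes turned sign over the 8 ways of processing. Leaving out a replicate was not possible with 1 array per group. No paired analysis was possible because there is only replicate 1 on either side. Signals near 11.3 in Ad-378 and 15.2 in Ad-Ctrl limit the dim paralogs.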
